A study of Mus musculus with 28 samples.

Results

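Interferon response genes and the genes of MHC class I antigen presentation were followed in the mouse hippocampus, after kainate and in old animals, in mice with 2 mutations of the fosB gene. The group was a named list of 38 gene symbols, and a member counted as measured when the array held a probe set that carried its symbol and no other. By that rule 32 of the 38 members were measured, by 36 probe sets, out of 19938 genes measured in the same way. The other 6 had no such probe set. Isg15, Gbp2 and Igtp shared theirs with a neighbouring or related gene (Gm9706, Gbp2b and Irgm2), H2-D1 and H2-K1 shared 2 probe sets with each other, and H2-T23 shared its probe set with H2-T-ps. No heavy chain of MHC class I on the list had a probe set of its own, so B2m, the light chain, was the only class I chain among the measured members.

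The arrays were Affymetrix Mouse Gene 1.0 ST arrays, each hybridised with hippocampal RNA (100 ng) of a C57BL/6J mouse labelled female and perfused with saline before dissection. At 10 weeks of age there were 6 groups of 3 arrays: wild type, G/G (fosB-null) and d/d (lacking FosB protein), each given saline or KA. KA is kainate, an agonist of a class of glutamate receptors that provokes seizures. FosB and its splice form delta-FosB are transcription factors of the AP-1 family that neurons switch on when active. The fosB-null allele is labelled as a null, and the d/d allele as lacking the FosB protein. At 64.7 to 71 weeks there were 3 wild type arrays, 3 fosB-null arrays labelled with epilepsy, 2 fosB-null arrays labelled without epilepsy, and 2 d/d arrays. A protocol text shared by all samples puts sacrifice at 14 months. That does not match the age label of the 18 young arrays, and it is somewhat below the age labels of the aged arrays. The age label of each sample was followed. The labels name no tissue-specific driver for either mutation and do not give the time from KA to sampling. Replicates are labelled as biological. P-values measure the spread between these arrays, and the number of arrays limits their precision.

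Some features of the whole series bear on the results. The deposited array medians lay between 7.95 and 8.43 on the log2 scale, and the young arrays fell into sets: the 6 arrays of replicate 1 (8.07 to 8.11), 8 arrays of replicates 2 and 3 given saline or, in wild type, KA (8.33 to 8.43), and 4 arrays of replicates 2 and 3 of the mutants given KA (8.05 to 8.11). The last set held no wild type and no saline array, so in the mutants the KA comparison and the array set can be told apart in replicate 1 alone. Values are log2 signals after quantile normalization over the 28 arrays. The 18 young arrays carried Y-linked signal despite their label (Eif2s3y 9.78 to 10.41, against 4.12 to 4.51 on the 10 aged arrays), so age cannot be told apart from sex or array set. For d/d saline the source name speaks of kainate, whereas the title and the treatment label say saline, and the latter were followed. Fosb signal was 8.68 to 8.80 in wild type, 8.39 to 8.47 in fosB-null and 8.93 to 9.38 in d/d mice after saline, 8.35 to 8.77, 7.81 to 8.43 and 8.81 to 9.16 after KA, and 9.44 to 9.86, 8.32 to 9.68 and 9.97 to 10.03 in aged mice; where its probe set lies relative to the mutated part was not examined, so these levels do not check the labels.

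Interferons are secreted proteins that act through receptors on the cell surface and the JAK kinases bound to them. In the type I response STAT2 and IRF9 belong to a complex that binds the interferon-stimulated response element (ISRE) of target promoters, and interferon gamma acts through gamma-activated sites (GAS). The targets include membrane proteins that hinder viral entry, RNA sensors and enzymes that stop viral translation, GTPases that act on intracellular pathogens, and the proteasome subunits, transporter and chaperone that load peptides onto MHC class I. Microglia, astrocytes, endothelial cells and neurons can all express such genes. In whole tissue, more cells of a type and more RNA per cell cannot be told apart.

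Promoters were examined because the members are grouped by a shared response, and the ISRE is the sequence through which that response is best known. RefSeq promoter windows (GRCm38.p6, 250 bases before to 50 after the annotated start) were given for 32 of the 38 members; none was given for Mx1, Mx2, Rtp4, Usp18, Iigp1 and Parp14. The ISRE core searched (GAAA, any 2 bases, then GAAA, on both strands; matches may overlap) was in the window of 18 of the 32 members (56.2%) and of 1079 of 27025 genes (3.99%). The letters TTCNNNGAA, the GAS core, were in 8 of the 32 members (25%) and in 9.55% of genes. Among members that rose after KA in wild type, 5 of the 10 with a window held the ISRE letters, and among measured members that were not called there, 9 of 16 did. The windows shown are those of 4 of the 5 members that rose with the ISRE letters (Ifitm3, Ifit3, Irgm1 and Gbp3; the fifth was Trim30a), of Ifit1 and B2m, which held them and were not called, and of Tap1, which rose without them. Each runs from 170 bases before to 30 after the start, 5′ to 3′ on the gene's strand, and capitals mark the ISRE letters on either strand.
Ifitm3 (chr7:141010715-141010914, minus strand): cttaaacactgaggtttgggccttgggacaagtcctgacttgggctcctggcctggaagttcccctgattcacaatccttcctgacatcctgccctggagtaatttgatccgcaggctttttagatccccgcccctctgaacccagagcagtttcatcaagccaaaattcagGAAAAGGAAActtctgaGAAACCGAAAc
Ifit3 (chr19:34583359-34583558, plus strand): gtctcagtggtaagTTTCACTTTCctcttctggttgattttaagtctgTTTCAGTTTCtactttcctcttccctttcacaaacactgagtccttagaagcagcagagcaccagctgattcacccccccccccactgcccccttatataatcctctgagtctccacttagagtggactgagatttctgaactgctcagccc
Ifit1 (chr19:34640719-34640918, plus strand): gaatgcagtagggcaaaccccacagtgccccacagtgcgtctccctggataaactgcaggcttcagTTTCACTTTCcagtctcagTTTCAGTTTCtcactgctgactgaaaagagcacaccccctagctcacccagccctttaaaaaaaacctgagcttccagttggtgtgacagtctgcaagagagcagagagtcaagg
Irgm1 (chr11:48871391-48871590, minus strand): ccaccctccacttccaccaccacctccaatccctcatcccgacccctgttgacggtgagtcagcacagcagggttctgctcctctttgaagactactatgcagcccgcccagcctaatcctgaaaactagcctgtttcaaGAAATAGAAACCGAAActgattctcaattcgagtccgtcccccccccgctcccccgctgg
Gbp3 (chr3:142559874-142560073, plus strand): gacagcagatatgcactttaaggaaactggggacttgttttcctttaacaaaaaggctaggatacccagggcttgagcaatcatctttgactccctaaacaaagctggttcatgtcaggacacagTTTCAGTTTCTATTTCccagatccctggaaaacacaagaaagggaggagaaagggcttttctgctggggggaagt
B2m (chr2:122147517-122147716, plus strand): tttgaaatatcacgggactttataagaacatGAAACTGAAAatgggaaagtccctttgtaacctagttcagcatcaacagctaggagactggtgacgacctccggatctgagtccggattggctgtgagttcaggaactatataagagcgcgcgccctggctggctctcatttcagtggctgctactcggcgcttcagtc
Tap1 (chr17:34187386-34187585, plus strand): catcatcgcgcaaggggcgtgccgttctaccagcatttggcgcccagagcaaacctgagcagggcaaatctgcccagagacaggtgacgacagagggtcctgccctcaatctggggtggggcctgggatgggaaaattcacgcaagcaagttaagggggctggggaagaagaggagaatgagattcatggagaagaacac
In Ifit3 the matches began 156 and 122 bases before the start, in Ifit1 104 and 85, and in B2m 139. In Irgm1 (30 and 24 bases) and Gbp3 (45 and 39 bases) the paired matches overlapped. In Ifitm3 both lay just past the annotated start. Tap1 and Psmb9 face away from each other with 226 bases between their starts, so their windows share 275 of 300 bases, and neither held the letters. A match describes these letters in the window and is not evidence that a factor was bound.

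In wild type hippocampus, KA raised 13 of the 32 measured members and lowered none (limma, two-sided moderated test, adjusted p under 0.05 over all genes). Of all genes, 6.9% were called in this comparison, and 3.48% of all genes were called higher. The members' median difference between KA and saline was 0.50 log2 units, against 0.01 for all genes, and 28 of the 32 differences were above 0. KA and saline arrays did not overlap for 22 members, 21 higher and 1 lower, where 10.8% and 11.5% of all genes were non-overlapping in those directions. Within the arrays of replicate 1 the members' median difference was 0.75, and within replicates 2 and 3, which share an array set, it was 0.39 (27 of 32 above 0).

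The Ifitm proteins sit in membranes and hinder the entry of viruses. Ifitm3 had the largest rise: the wild type saline arrays read 10.36, 10.25 and 10.65 and the KA arrays 11.95, 11.42 and 11.56. Every KA array lay above every saline array, a rise of 1.22 ± 0.16 (SE) or 2.33-fold (limma adjusted p = 0.000234). Ifitm1 went from 8.80, 8.24 and 8.60 to 9.83, 9.03 and 9.05, with the replicate 1 array highest after KA (0.76 ± 0.22, adjusted p = 0.0499). Ifitm1 has 2 probe sets, and in the fit over all 21789 probe sets neither was called (0.76, limma adjusted p = 0.0521, and 0.78, adjusted p = 0.0871). Ifitm2 read 10.12, 10.44 and 11.01 in saline and 11.13, 11.10 and 11.15 after KA. The saline arrays were spread and the KA arrays close together, and the difference of 0.61 ± 0.19 was not called (adjusted p = 0.07). Ifitm2 is measured by 3 probe sets and the brightest stood for it; in the fit over all probe sets the other two were called (0.60, adjusted p = 0.0345, and 0.54, adjusted p = 0.0288). The Ifitm genes are close relatives, and cross-hybridisation between them was not tested. Bst2, or tetherin, which holds budding virus on the cell surface, differed by 0.14 ± 0.13 and its groups overlapped.

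**Figure D1:**
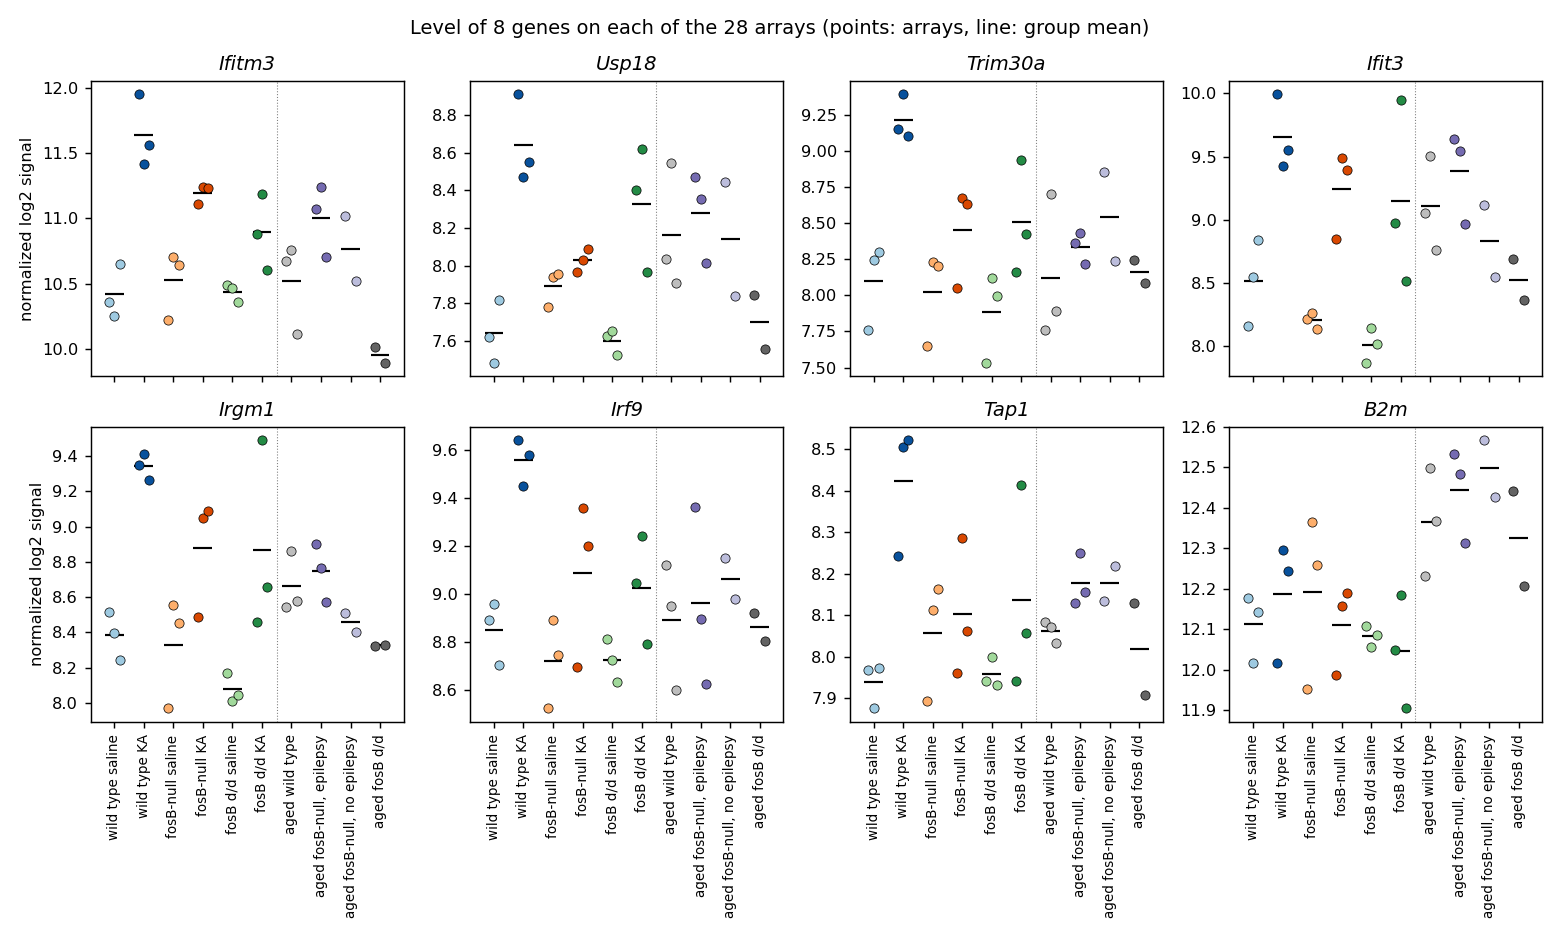
Normalized log2 signal (vertical axes, each panel with its own range that does not start at 0) of Ifitm3, Usp18, Trim30a, Ifit3, Irgm1, Irf9, Tap1 and B2m on each of the 28 arrays, by group; points are arrays and the horizontal line is the group mean. For the first 7 genes every wild type KA array lies above every wild type saline array, whereas for B2m the KA arrays (12.02 to 12.30) and the saline arrays (12.02 to 12.18) overlap.

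Of the transcription factors that carry the interferon signal, Irf9, the DNA-binding partner of STAT2, rose. Its arrays read 8.89, 8.96 and 8.70 in saline and 9.64, 9.45 and 9.58 after KA (0.71 ± 0.15, adjusted p = 0.00895). Irf7, which drives interferon alpha genes, read 7.55, 7.71 and 7.87 in saline and 8.23, 8.23 and 8.29 after KA. The groups did not overlap, but the difference of 0.54 ± 0.16 just missed the threshold (adjusted p = 0.052). Stat2 differed by 0.30 ± 0.15 and was not called. Usp18, which removes the ubiquitin-like protein ISG15 from its targets and restrains signalling at the type I receptor, went from 7.62, 7.48 and 7.82 to 8.91, 8.47 and 8.55. The lowest KA array was well above the highest saline array (1.00 ± 0.14, adjusted p = 0.00044).

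Irf1, a factor induced chiefly by interferon gamma, gave opposite answers from its probe sets. The brighter, which stood for the gene, read 8.42, 8.21 and 8.13 in saline and 8.11, 8.04 and 8.12 after KA, slightly lower in every KA array (-0.16 ± 0.09, adjusted p = 0.332 over all probe sets). The dimmer read 7.79, 7.60 and 7.66 in saline and 8.34, 8.06 and 8.07 after KA, higher in every KA array (0.47 ± 0.10, adjusted p = 0.00768). In fosB-null mice the same probe sets differed by -0.22 and 0.25, and in d/d mice by -0.14 and 0.17. Which transcripts each probe set reads was not examined, and no direction is given for Irf1.

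**Figure D2:**
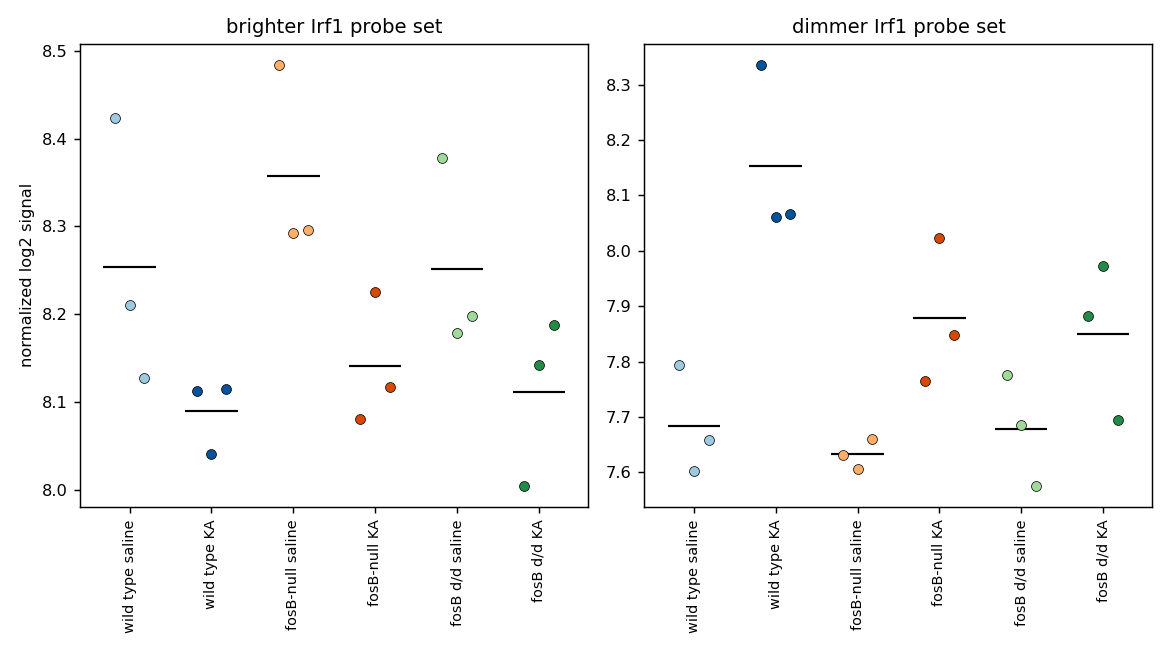
Normalized log2 signal of the brighter (left) and the dimmer (right) probe set of Irf1 on the 18 young arrays, by genotype and treatment; points are arrays and the horizontal line is the group mean, and the vertical axes do not start at 0. In wild type the left panel falls after KA (-0.16) and the right panel rises (0.47).

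Among genes that sense or disable viral RNA, Ifit3 and Oasl2 rose. Ifit proteins bind viral RNA and its translation complex, and Oasl2 belongs to the oligoadenylate synthetase family. Ifit3 read 8.16, 8.55 and 8.84 in saline and 9.99, 9.43 and 9.55 after KA (1.14 ± 0.28, 2.20-fold, adjusted p = 0.0203). Oasl2 read 8.14, 8.50 and 8.74 in saline and 9.64, 9.14 and 9.35 after KA (0.92 ± 0.23, adjusted p = 0.022). For both genes the KA arrays were all above the saline arrays. Ifit1 also did not overlap (7.74, 8.08 and 8.12 against 8.94, 8.49 and 8.60), but its difference of 0.69 ± 0.24 was not called (adjusted p = 0.102). Ifit2, which neighbours them in the genome, differed by -0.17 ± 0.12 with overlapping groups, and the RNA sensor Ifih1 by -0.06 ± 0.14. Eif2ak2, the kinase PKR that halts translation, differed by 0.48 ± 0.16, Oas1a by 0.37 ± 0.19 and Rsad2 (viperin) by 0.27 ± 0.18; none was called. The Mx proteins are dynamin-like GTPases that trap viral particles. Mx1, a dim probe set, read 5.54, 5.05 and 5.56 in saline and 6.16, 5.91 and 5.77 after KA, a rise of 0.56 ± 0.13 (adjusted p = 0.0163) without overlap. Mx2 differed by 0.38 ± 0.19 with overlapping groups.

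The interferon-induced GTPases gather on vacuoles that hold pathogens. Irgm1 went from 8.52, 8.40 and 8.24 in saline to 9.35, 9.41 and 9.26 after KA, tight in both groups (0.96 ± 0.22, adjusted p = 0.0143). Gbp3 went from 7.59, 7.48 and 7.68 to 8.56, 8.18 and 8.28, again with no overlap (0.76 ± 0.18, adjusted p = 0.0157). Iigp1 read 6.36, 6.34 and 6.87 against 7.63, 7.05 and 6.85, so 1 KA array lay within the saline range, and its 0.65 ± 0.30 was not called. Of the remaining interferon-induced members, 3 of 5 rose: Trim30a, a ubiquitin ligase that dampens innate signalling, Lgals3bp, a secreted glycoprotein, and Rtp4, a chaperone of membrane receptors. Trim30a read 7.76, 8.25 and 8.30 in saline and 9.15, 9.39 and 9.10 after KA (1.11 ± 0.23, adjusted p = 0.0069). Its KA arrays were all far above saline. Lgals3bp read 9.62, 9.86 and 10.42 against 10.83, 10.74 and 10.67 (0.78 ± 0.22, adjusted p = 0.0444), with saline arrays far more spread than KA arrays. Rtp4 read 7.55, 7.59 and 7.36 against 8.31, 7.98 and 7.78 (0.52 ± 0.14, adjusted p = 0.03). Xaf1, a partner of an apoptosis inhibitor, differed by 0.32 ± 0.10 and Parp14, an ADP-ribosyltransferase, by -0.04 ± 0.11.

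In the MHC class I pathway, Tap1 alone was called. Tap1 is a subunit of the transporter that carries peptides into the endoplasmic reticulum, and it read 7.97, 7.88 and 7.97 in saline and 8.24, 8.50 and 8.52 after KA (0.48 ± 0.12, adjusted p = 0.0209). Its KA arrays were all above saline. Psmb9, the immunoproteasome subunit that shares its promoter window, read 8.67, 8.43 and 8.73 against 8.39, 8.98 and 8.80 (0.11 ± 0.17). Its replicate 1 KA array was the lowest of the 6, and the groups overlapped. Psmb8, another immunoproteasome subunit, differed by 0.34 ± 0.12 without overlap but was not called (adjusted p = 0.097), and Tapbp, the tapasin chaperone, by 0.17 ± 0.10. B2m read 12.18, 12.02 and 12.14 against 12.02, 12.30 and 12.24, a difference of 0.07 ± 0.11 (adjusted p = 0.77).

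The calls of Ifitm3, Usp18, Trim30a and Irf9 held in all 15 alternative fits, which include leaving out each array. Gbp3 held in 13 of 15, Ifit3 and Irgm1 in 12, Oasl2 and Rtp4 in 10 of 15, Mx1 in 10 of the 14 in which it was tested, Ifitm1 and Tap1 in 9 and Lgals3bp in 7. The count of 13 fell to 6 without wild type KA replicate 1 and to 4 without wild type saline replicate 2. All genes called went from 1375 to 1095 and 711 in these fits. On replicates 2 and 3 alone 16 members and 3538 of all genes were called, but Ifih1 among the members was lower (-0.34). Mx1 and Lgals3bp were not called there.

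Upstream of the members, the interferon genes themselves showed little. Ifnb1 differed by 0.04 ± 0.21 and Ifng by 0.01 ± 0.15 between wild type KA and saline. Whether their signals lay above background was not examined, so these differences do not show that the ligands were unchanged. Of the 10 listed ligands and receptors, 1 rose and 1 fell: Ifnar2, a chain of the type I receptor (0.31 ± 0.08, adjusted p = 0.0307), and Il15, an interferon-induced cytokine (-0.42 ± 0.10, adjusted p = 0.0144). Of 22 measured signalling and sensing genes 6 rose and none fell, with a median of 0.21. They were Socs3, the feedback inhibitor of cytokine receptors (1.53 ± 0.18), Stat3, which answers chiefly to the interleukin 6 family (1.35 ± 0.15), the Toll-like receptor adaptor Myd88 (0.98 ± 0.14), Irf8, Ptpn2 and Ciita. Of 38 measured further interferon response genes 8 rose and none fell, with a median of 0.18, among them the chemokine Cxcl10 (1.99 ± 0.36), the GTPase Gbp7 (0.97 ± 0.19) and the RIG-I ligase Trim25 (0.56 ± 0.08). Of 21 measured further antigen presentation genes 3 rose and none fell (median 0.08): Cd1d1, which presents lipids, and Ctss and H2-Ab1, which serve MHC class II.

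Markers of cell types moved as well. Of 19 measured microglial markers 8 rose and 1, Siglech, fell after KA in wild type, with a median of 0.18. Their summed level (the log2 of the sum of the markers' signals) was 13.86 to 13.90 on the wild type saline arrays and 14.26 to 14.27 on the KA arrays. It was 14.01 to 14.12 on fosB-null KA arrays and 13.90 to 14.16 on d/d KA arrays, so the wild type KA arrays were the highest of the 28. Of 12 astrocyte markers 2 rose (Gfap by 1.56 and Aqp4 by 0.77) and 5 fell. None of 10 markers of blood monocytes and macrophages and none of 14 of T, B and NK cells was called, with summed levels of 10.36 to 10.55 and 10.64 to 10.73 on wild type KA arrays against 10.50 to 10.70 and 10.51 to 10.71 on saline arrays. Choroid plexus markers were uneven between dissections: 13.63, 12.75 and 14.88 on the wild type saline arrays and 14.89, 14.69 and 14.23 on the KA arrays, with none of 10 called. On the d/d saline arrays they were 14.69 to 14.99. Oligodendrocyte markers summed to 14.37 to 14.59 on the wild type KA arrays against 14.64 to 14.90 on the saline arrays, and 2 of 9 fell (Cnp and Mal). Markers of meninges and fibroblasts summed to 12.87 to 12.95 against 13.06 to 13.63, and 1 of 10, Dcn, fell. The part of any of these cell types in the members' rise was not tested.

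**Figure D3:**
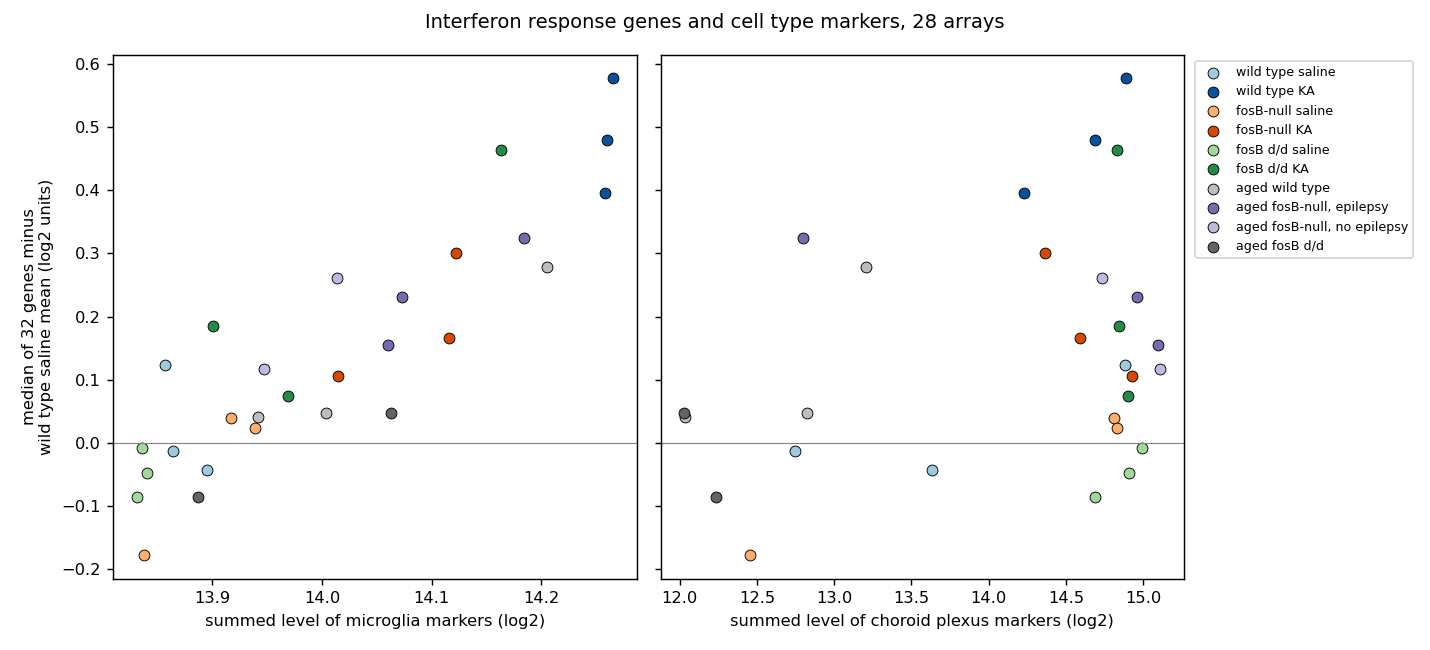
Median over the 32 measured members of the difference from the wild type saline mean (vertical axis, log2 units) against the summed level of 19 microglial markers (left) and of 10 choroid plexus markers (right), log2 scale, 1 point per array for all 28 arrays. The 3 wild type KA arrays stand at the top right of the left panel (microglia 14.26 to 14.27, members 0.40 to 0.58), and in the right panel arrays with high choroid plexus levels stand at member values from -0.09 to 0.58.

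In both mutants most members also read higher after KA than after saline, by smaller differences, and few passed the test. In fosB-null mice none of the 32 was called, where 0.762% of all genes were; 12 had an unadjusted p under 0.05, as did 12.5% of all genes. The median difference was 0.20, against -0.01 for all genes, with 26 members above 0. The groups did not overlap for 13 members higher and 1 lower (7.71% and 9.57% of all genes). In d/d mice 1 member, Usp18, was called, where 0.461% of all genes were. The median was 0.26, 29 members lay above 0, and 10 members were higher without overlap (7.33% of all genes). In all, 23 of the 32 members differed upward in the 3 genotypes alike. Same-numbered arrays deviated together in both mutants, but the reported tests used no block. With the number as a block, Ifitm1 was called in fosB-null mice (476 genes in place of 152), and Trim30a, Usp18 and Gbp3 in d/d mice (416 in place of 92). Within the replicate 1 arrays, which share an array set, the members' median difference was 0.20 in fosB-null and 0.27 in d/d, beside 0.75 in wild type, with 1 array a group. These arrays also differed in dissection. Choroid plexus markers went from 12.46 in saline to 14.93 after KA in fosB-null, 13.63 to 14.89 in wild type and 14.91 to 14.85 in d/d. Markers of meninges and fibroblasts went from 12.81 to 13.62, 13.06 to 12.95 and 13.32 to 13.32. The part of these tissues in the differences was not tested.

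Ifitm3 in fosB-null mice read 10.23, 10.71 and 10.65 in saline and 11.11, 11.24 and 11.23 after KA (0.67 ± 0.16, limma adjusted p = 0.0762). Its KA arrays were all above saline, and all below the lowest wild type KA array. Gbp3 read 7.36, 7.58 and 7.57 against 7.89, 8.30 and 8.34 (0.68 ± 0.18, adjusted p = 0.104), and Ifit3 read 8.22, 8.26 and 8.14 against 8.85, 9.49 and 9.39 (1.04 ± 0.28, adjusted p = 0.113). Neither overlapped, and over the 3 arrays a group both differences were near those of wild type. Within the replicate 1 arrays, with 1 array a group, they were not. There Ifit3 differed by 0.63 in fosB-null, 1.10 in d/d and 1.83 in wild type, and Gbp3 by 0.53, 0.31 and 0.97. Iigp1 differed by 0.80 ± 0.30, Ifitm1 by 0.58 ± 0.22 and Eif2ak2 by 0.52 ± 0.16. The brightest Ifitm2 probe set, which stood for the gene, differed by 0.49 ± 0.19. Its other probe sets differed by 0.72 ± 0.16 (limma adjusted p = 0.0529 over all probe sets) and 0.19 ± 0.14. Usp18 read 7.78, 7.94 and 7.96 in saline and 7.96, 8.03 and 8.09 after KA, the arrays lying close together (0.14 ± 0.14). Mx1 differed by -0.09 ± 0.13, Xaf1 by -0.17 ± 0.10 and Tap1 by 0.05 ± 0.12. Of the pathway genes, Stat3 (0.88 ± 0.15, adjusted p = 0.0105) and Myd88 (0.64 ± 0.14, adjusted p = 0.039) rose.

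In d/d mice Usp18 read 7.63, 7.65 and 7.52 in saline and 8.40, 8.62 and 7.96 after KA (0.73 ± 0.14, limma adjusted p = 0.0371). Every KA array was above saline, and the call held in 5 of 14 alternatives; it was lost with the array set as a block, without KA replicate 1 or 2 and without any of the 3 saline arrays. Gbp3 read 7.36, 7.36 and 7.18 against 7.67, 8.57 and 8.04 (0.80 ± 0.18, adjusted p = 0.0625). Ifit3 read 7.87, 8.14 and 8.02 against 8.97, 9.95 and 8.52 (1.14 ± 0.28, adjusted p = 0.0875). Both were above saline on every KA array, and for both KA replicate 2 was highest. Irgm1 read 8.17, 8.01 and 8.05 against 8.46, 9.49 and 8.66 (0.79 ± 0.22), with the same array highest. Over all 32 members that array stood 0.46 above the wild type saline mean at the median, against 0.18 and 0.07 for the other d/d KA arrays. Its microglial markers were also the highest of the 3, at 14.16 against 13.90 and 13.97. Ifitm3 read 10.49, 10.47 and 10.36 against 10.88, 11.19 and 10.61 (0.45 ± 0.16, adjusted p = 0.256), and Ifitm2 differed by 0.10 ± 0.19. Of the pathway genes, Trim25 (0.46 ± 0.08, adjusted p = 0.0283) and Stat3 (0.74 ± 0.15, adjusted p = 0.0388) rose.

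**Figure D4:**
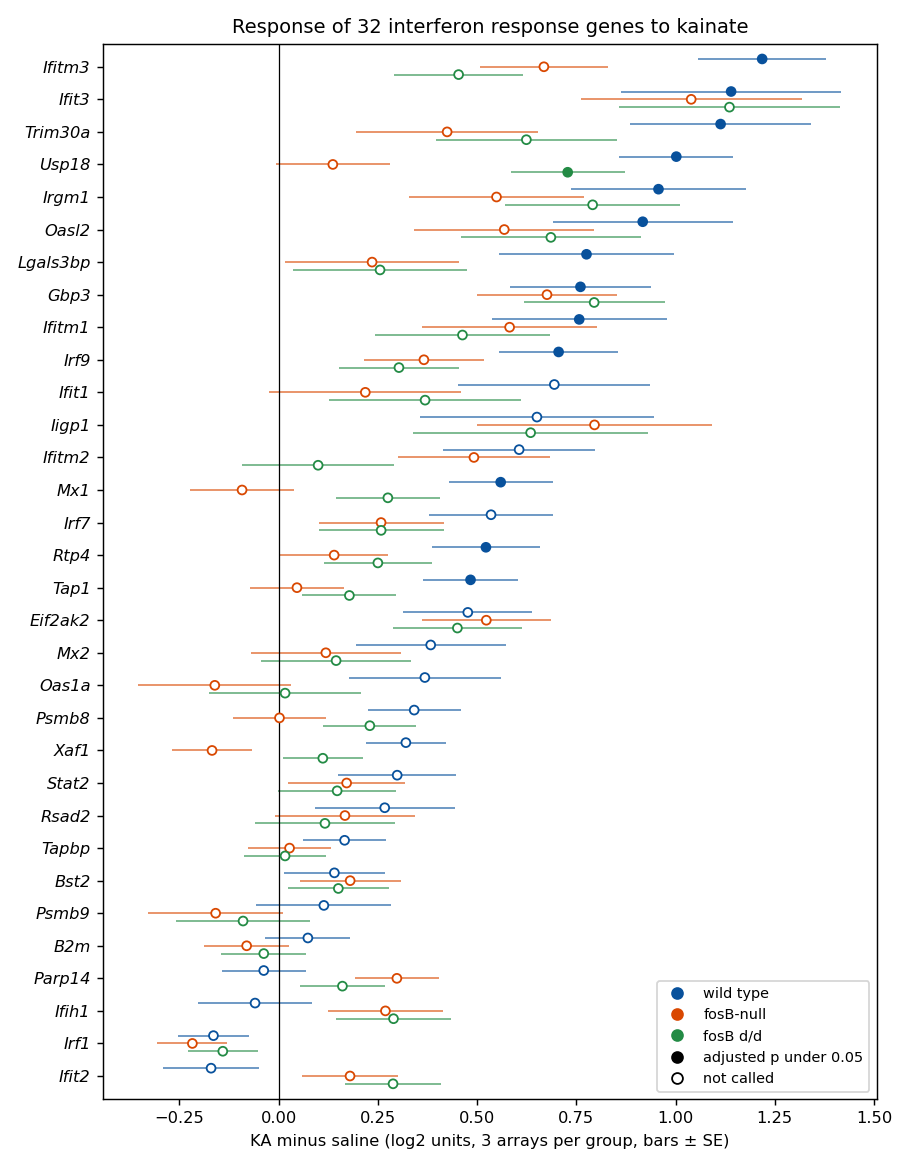
Difference between KA and saline (horizontal axis, log2 units, with bars of ± 1 SE from the limma fit, 3 arrays per group) for the 32 measured members in wild type, fosB-null and d/d mice; filled points were called at adjusted p under 0.05. Wild type points lie farthest right for Ifitm3 (1.22), Trim30a (1.11) and Usp18 (1.00), whereas for Ifit3, Gbp3 and Iigp1 the 3 genotypes lie within each other's bars.

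The difference between the KA responses was tested as an interaction. For fosB-null against wild type no member was called (0.176% of all genes were); 7 had an unadjusted p under 0.05 (13.7% of all genes), and the response was smaller in 26 of 32 members, with a median of -0.27. The smallest p-values were those of Usp18 (-0.87 ± 0.20, limma adjusted p = 0.0888), Mx1 (-0.65 ± 0.19, adjusted p = 0.149) and Xaf1 (-0.49 ± 0.14, adjusted p = 0.157). With the array set as a block, Mx1 was called (-0.73, adjusted p = 0.043). For d/d against wild type no member was called either (0.0301% of all genes were); 2 had an unadjusted p under 0.05 (7.95% of all genes), and the median was -0.21 with 26 members smaller. The smallest p-values were those of Ifitm3 (-0.76 ± 0.23, adjusted p = 0.347), Ifit2 (0.46 ± 0.17, adjusted p = 0.502) and Irf9 (-0.40 ± 0.21, adjusted p = 0.674). Both tests use the same wild type arrays. For Ifit3 the interaction was -0.10 in fosB-null and -0.0041 in d/d, and for Gbp3 it was -0.08 and 0.03, with SEs of 0.39 and 0.25 in both, so these data do not show that the genotypes differ in those genes or that they act alike.

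Compared directly after KA, fosB-null and wild type gave no called member (0.792% of all genes were called), but 28 of 32 were lower in fosB-null and 13 were lower without overlap (10.3% of all genes). The unadjusted p was under 0.05 for 12 members (13.3% of all genes). Usp18 was 0.61 ± 0.14 lower (limma adjusted p = 0.0569), Xaf1 0.42 ± 0.10 lower (adjusted p = 0.0633) and Mx1 0.48 ± 0.13 lower (adjusted p = 0.101). Trim30a read 8.05, 8.67 and 8.63 in fosB-null against 9.15, 9.39 and 9.10 in wild type, all lower. Same-numbered arrays deviated together here, but the reported test used no block. With the number as a block Trim30a, Xaf1, Mx1 and Usp18 were called (716 genes in place of 158). Between d/d and wild type after KA, Ifitm3 was called lower (-0.75 ± 0.16, adjusted p = 0.0456; 0.687% of all genes were called, 0.476% lower). Its d/d arrays (10.88, 11.19 and 10.61) were all under the lowest wild type array (11.42), and the call held in 7 of 14 alternatives, ending after median centring, with only the groups compared, with the array set as a block (-0.79, adjusted p = 0.102), without wild type KA replicate 1 or 3 and without d/d KA replicate 1 or 3. Irf9 (-0.53 ± 0.15) and Trim30a (-0.71 ± 0.23) were next and were not called. With the array set as a block, Trim30a was the only member called (452 genes in place of 137). With the number as a block, Trim30a and Ifitm3 were called (526 genes), though same-numbered arrays did not all deviate together here. Socs3, the feedback inhibitor, was lower than wild type in fosB-null (-0.90 ± 0.18, adjusted p = 0.033) and in d/d (-0.98 ± 0.18, adjusted p = 0.0203). These comparisons share the wild type KA arrays, and the mutant replicates 2 and 3 stand in an array set of their own. The mutants did not differ from each other after KA in any member at adjusted p under 0.05 (0% of all genes were called). Mx1 was 0.32 ± 0.13 lower in fosB-null than in d/d, Usp18 0.30 ± 0.14 lower and Ifitm3 0.30 ± 0.16 higher.

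Under saline the genotypes were close. No member was called for fosB-null against wild type (0.0802% of all genes were) or for d/d against wild type (0.01% were), and the members' medians were -0.03 and -0.05. Ifit2 had the smallest p in both. It read 7.56, 7.93 and 7.65 in wild type, 7.33, 7.45 and 7.24 in fosB-null (-0.37 ± 0.12, limma adjusted p = 0.356) and 7.38, 7.52 and 7.33 in d/d (-0.30 ± 0.12, adjusted p = 1.00). Every mutant array lay under every wild type array, and the same 3 wild type arrays serve both comparisons. In fosB-null, Usp18 (0.25 ± 0.14) and Parp14 (-0.17 ± 0.11) came next, and in d/d, Ifit3 (-0.51 ± 0.28) and Gbp3 (-0.28 ± 0.18).

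In the aged mice no member was called in any comparison. Aged fosB-null mice labelled with epilepsy had 27 of 32 members above aged wild type, with a median of 0.12, and 5 with an unadjusted p under 0.05 (3.37% of all genes); 0% of all genes were called. All 4 Ifitm and Bst2 probe sets used were above 0. Ifitm2 read 10.51, 10.78 and 10.79 against 10.19, 10.02 and 9.82 in aged wild type, without overlap (0.68 ± 0.12, limma adjusted p = 0.383). Ifitm1 read 8.62, 9.06 and 8.86 against 8.73, 8.32 and 8.09 with overlap (0.47 ± 0.17, adjusted p = 1.00). Lgals3bp read 10.86, 10.64 and 10.61 against 9.88, 10.66 and 9.96, where aged wild type replicate 2 stood with the mutants (0.54 ± 0.19). Without the first epilepsy array Ifitm2 was called, with 36 genes in all.

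The fosB-null mice labelled without epilepsy also had Lgals3bp (11.11 and 11.12, 0.95 ± 0.22 above aged wild type, limma adjusted p = 0.174) and Ifitm2 (10.39 and 10.63, 0.49 ± 0.13, adjusted p = 0.199) above every aged wild type array; Irf1 came next (-0.22 ± 0.11 from its brighter probe set, and 0.03 ± 0.07 from its dimmer one). None was called, and 0.0351% of all genes were. Choroid plexus markers were 14.73 and 15.11 on these arrays, 14.96, 12.80 and 15.09 on the epilepsy arrays and 12.03 to 13.20 on aged wild type arrays. Markers of meninges and fibroblasts summed to 13.09 and 13.28 without epilepsy, 12.98 to 13.67 with epilepsy and 12.67 to 12.95 in aged wild type, and those of blood monocytes and macrophages to 10.70 on both arrays without epilepsy, 10.61 to 11.02 with epilepsy and 10.32 to 10.79 in aged wild type. The part of these cell types in the members' differences was not tested. Fitted against each other, fosB-null mice with and without epilepsy had the smallest p-values, by the probe set used, in Psmb9 (0.25 ± 0.10 higher with epilepsy), Irgm1 (0.29 ± 0.12) and Irf1 (0.24 ± 0.11 from the brighter probe set, and 0.07 ± 0.07 from the dimmer). None of them was called, as 0% of all genes were. The dimmer Ifitm1 probe set differed more, by 0.70 ± 0.22 (limma adjusted p = 0.351 over all probe sets). The brighter, which stood for Ifitm1, differed by 0.11 ± 0.19. These comparisons share arrays and have 2 arrays in the group without epilepsy.

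Aged d/d mice went the other way. Of 32 members 26 were below aged wild type, with a median of -0.13, and 8 were lower without overlap, where 12.2% of all genes were with 2 arrays against 3. None was called (0.01% of all genes were). Irgm1 read 8.32 and 8.33 against 8.54, 8.86 and 8.58 (-0.33 ± 0.12, limma adjusted p = 0.382) and Ifitm3 10.02 and 9.90 against 10.68, 10.76 and 10.12 (-0.56 ± 0.22, adjusted p = 0.431), with both d/d arrays below all 3 wild type arrays in each. Xaf1 differed by -0.26 ± 0.11 (adjusted p = 0.467), also without overlap. Aged wild type replicate 2 was itself high, its members standing 0.28 above young wild type saline at the median against 0.05 and 0.04 for the other two, with microglial markers at 14.20 against 14.00 and 13.94. Choroid plexus markers were 12.03 and 12.24 on the d/d arrays.

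**Figure D5:**
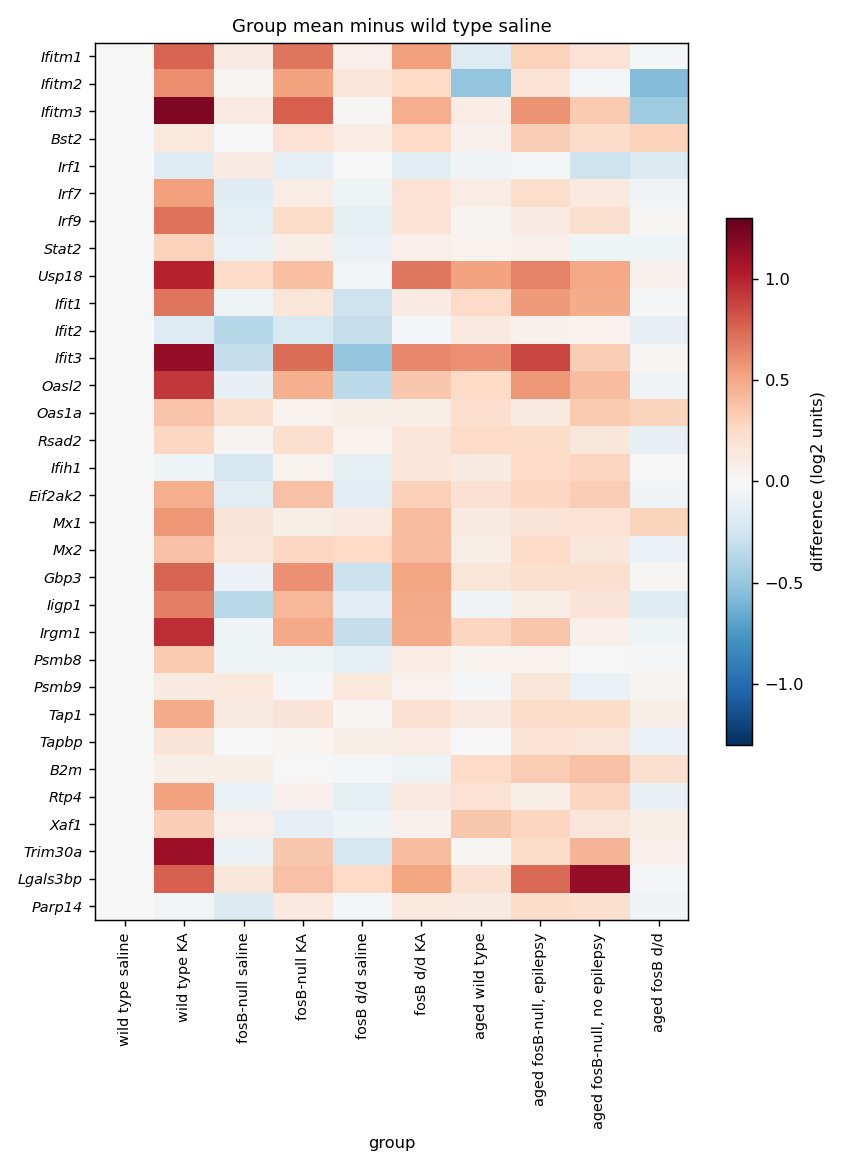
Difference of each group's mean from the wild type saline mean (colour, log2 units) for the 32 measured members (rows, by role) in the 10 groups (columns). Wild type KA is the reddest column, with Ifitm3 at 1.22, and the aged fosB-null columns are red for Lgals3bp.

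Aged wild type differed from young wild type saline in no member at adjusted p under 0.05 (0.171% of all genes were called), with 26 of 32 members above 0, a median of 0.12 and 5 members with an unadjusted p under 0.05 (7.95% of all genes). Xaf1 read 8.14, 8.20 and 8.15 in aged and 7.79, 7.81 and 7.85 in young arrays, tight and apart (0.35 ± 0.10, limma adjusted p = 0.301). Usp18 read 8.03, 8.54 and 7.91 against 7.62, 7.48 and 7.82, also apart (0.52 ± 0.18, adjusted p = 0.405). Ifitm2 went the other way with overlap (-0.51 ± 0.18, adjusted p = 0.405). B2m read 12.23, 12.50 and 12.37 against 12.18, 12.02 and 12.14, above every young wild type saline array (0.25 ± 0.11, adjusted p = 0.547).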

How the data were processed

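Per the submitters' processing notes, the authors used Affymetrix Expression Console; the deposited values are log2 signals per probe set, and the algorithm and build are not given in the sources used here. Of 35557 probe sets, the platform annotation gave 21789 a single symbol, 1621 several and 12147 none. The brightest probe set stood for a gene, giving 19938 genes. Deposited log2 values were quantile-normalized over the 28 arrays, because their medians differed, and group means were contrasted with limma 3.58.1 in R 4.3.3 (empirical Bayes, Benjamini-Hochberg over all genes, called at adjusted p under 0.05). The 18 young arrays entered 1 fit, the 10 aged arrays another, and the comparison of ages used all 28. The fits were tested on simulated data.

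The 38 members and all lists were chosen with earlier results of these data known. Members called were named, or else the 3 of smallest p, with family members beside them; of pathway lists, called genes. The test of each probe set of Ifitm1, Ifitm2 and Irf1 was added after seeing the data. Same-numbered arrays deviated together (r over 0.1 in each of 3 pairs) in the fosB-null KA (0.23 to 0.38), d/d KA (0.26 to 0.36), d/d saline against wild type (0.40 to 0.77), fosB-null against wild type after KA (0.35 to 0.48) and aged epilepsy (0.21 to 0.50) comparisons. The reported tests nevertheless used no block, and the number as a block is given as an alternative. Replicate 1 of the young arrays was also an array set, so whether the numbers mark pairs or array sets was not settled. Alternatives were the deposited values, median centring, the replicate number or the array set as a block, leaving out the dimmest 30% of genes, the mean of a gene's probe sets, trended and robust moderation, only the groups compared, single array sets, and leaving out each array.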

Additional observations from a re-analysis of the deposited data

How the results depend on the processing

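Over 15 comparisons, the count of members called was recomputed under 218 alternatives, and 182 counts stayed within 1.5 times the reported one. In most of these comparisons the reported count was 0, and a count that stayed at 0 is among the 182. That number therefore says little about how stable the calls were. Single-member values were followed only for members called, or else the 3 of smallest p, and none of these 746 turned direction. Members outside that choice could turn: Rsad2, above 0 in wild type after KA, was -0.05 on array set 2. In wild type after KA (13 called) the count was 10 on deposited values, 9 with only the groups compared and 16 on array set 2, where Ifih1 was called lower. It was 18 with the replicate block, whose numbers share only a number there, and 19 with the array set block. Leaving out 1 array gave 4 to 11, with 711 to 1359 of all genes called. All genes called there went from 1375 to 511 on deposited values, 503 with only the groups compared, 2880 with the replicate block, 3504 with the array set block and 3538 on array set 2. In fosB-null mice after KA (0 called) the count was 1 with the replicate block, 1 without the dimmest genes and 1 with trended moderation, and leaving out 1 array gave 0 to 3, the 3 (Gbp3, Irf9 and Ifit3) without KA replicate 1. In d/d mice after KA (1 called) it was 0 on deposited values, after median centring, with only the groups compared and with the array set block, 2 without the dimmest genes, 3 with the replicate block and 0 to 3 leaving out 1 array, the 3 without KA replicate 3. All genes called fell to 12 in fosB-null and 16 in d/d with the array set block. They went from 152 to 388 in fosB-null without KA replicate 1, and from 92 to 54 in d/d without KA replicate 3. The interaction for fosB-null (0 called) gave 3 with the replicate block (Mx1, Trim30a and Xaf1; unpaired numbers) and 1 with the array set block. For fosB-null against wild type after KA (0 called) the count was 4 on deposited values, 4 with the replicate block, 2 without the dimmest genes, 1 with trended moderation, 2 with the array set block (Trim30a and Mx1), and 0 to 1 leaving out 1 array, the 1 without fosB-null replicate 1 or wild type replicate 2. For d/d against wild type after KA (1 called) it was 4 on deposited values, 0 after median centring, 2 with the replicate block, 0 with only the groups compared, and 0 to 1 leaving out 1 array. It stayed at 1 with the array set block, but the member called was Trim30a in place of Ifitm3. Under saline, fosB-null against wild type gave 1 (Ifit3) on array set 2, where all genes called went from 16 to 1044. For aged epilepsy against wild type leaving out 1 array gave 0 to 1. The replicate block changed no other count of members. The causes were not tested. The 2 or 3 arrays a group limit the precision, and the probe set of Mx1 is among the dimmest 30%.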
